A study of Mus musculus with 8 samples.

Results

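The 6 genes described here were the mouse SoxD factors Sox5, Sox6 and Sox13 and the SoxE factors Sox8, Sox9 and Sox10. They were taken by symbol from the 32285 features counted in the series, and all 6 were found. Single-nucleus RNA sequencing had been performed on the petrous temporal bone (PTB), which encloses the inner ear, and on the paraflocculus/flocculus (PF/F), the cerebellar lobules that lie against it. Each tissue had 2 WT and 2 Tbx1+/- libraries, each pooled from 5 mice at P5.5, so that single animals could not be told apart and 4 libraries per tissue were the replicates. Tbx1+/- mice carried 1 functional copy of Tbx1, a T-box transcription factor, in every cell, and WT mice were their littermates. Within a tissue, the replicate number was taken as the study's batch. Across the tissues the deposited dates match for replicate 2 and differ for replicate 1. The value used throughout was the unique molecular identifier (UMI), a count of captured RNA molecules, summed over the nuclei of an annotated type in a library and expressed per 1000000 UMIs of those nuclei (CPM). The types were those of the study's annotation as used here, 15 in the PTB, for its connective tissue, cartilage and bone subset, and 16 in the PF/F.

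SoxD and SoxE proteins bind DNA through a high-mobility-group (HMG) box. Sox9 is the factor without which cartilage does not form, and Sox5 and Sox6 act beside it on the genes of the cartilage matrix. The SoxE factors Sox9 and Sox10 also act in glia: Sox9 in astrocytes and in neural progenitors that become glial, and Sox10 in oligodendrocytes, Schwann cells, melanocytes and the epithelium of the inner ear. Sox8 overlaps with both in many tissues, Sox13 is best known from gamma-delta T cells and arterial walls, and Sox5 and Sox6 restrain the maturation of oligodendrocyte precursors.

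The 6 genes lay on 6 chromosomes and differed in size. On GRCm38 (mm10), Sox5 covered chr6:143828425-144781977 and Sox6 covered chr7:115470872-116038796, both on the minus strand, and exons took up 1.51% and 2.61% of them. Sox13 covered chr1:133382303-133424377, with 10.2% in exons. The SoxE genes were short: Sox8 covered 4795 bases, Sox9 5537 bases and Sox10 10333 bases. Reads in introns had been counted, and how gene length affects the UMIs of a gene was not tested. Levels were therefore compared between types for each gene. Where values of different genes stand side by side, as in shares of nuclei or the ratio of Sox6 to Sox5 UMIs, they do not rank the genes. Sequence is shown for the core of the HMG box, where the members can be told from one another base by base. Each line gives 30 coding bases, 5′ to 3′ on the gene's own strand, from GENCODE vM21 transcripts, in exon 13 of Sox5, exon 14 of Sox6, exon 12 of Sox13, exon 1 of Sox8, exon 1 of Sox9 and exon 3 of Sox10. Capitals mark the 23 bases that all 6 genes share.
Sox5, chr6:143841244-143841273: cGtCCaATGAAtGCcTTCATGGTgTGGGCg
Sox6, chr7:115489733-115489762: cGaCCaATGAAtGCgTTCATGGTtTGGGCa
Sox13, chr1:133385536-133385565: aGaCCcATGAAtGCcTTCATGGTgTGGGCc
Sox8, chr17:25570193-25570222: cGgCCcATGAAtGCcTTCATGGTgTGGGCa
Sox9, chr11:112782903-112782932: cGaCCcATGAAcGCcTTCATGGTgTGGGCg
Sox10, chr15:79163372-79163401: aGgCCcATGAAcGCcTTCATGGTgTGGGCa
Over the 237 coding bases of the box, members of the same subgroup were 81.4% to 84.8% identical in SoxD and 81.4% to 85.2% in SoxE. Between the subgroups, identity was 53.2% to 61.2% over 9 pairs. Counting used the whole gene and not the box alone. Sox5 shared its span with the sense intronic gene Sox5it and 5 antisense genes of the files, Sox6 with the antisense genes Gm45025 and Sox6os, and Sox8 with the antisense gene 2810468N07Rik. Whether strand was used in the counting is not given in the sources used here.

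The PTB libraries held 11906 to 21868 barcodes, of which 5981 to 9977 were annotated nuclei with a median of 3853 to 4758 UMIs. The PF/F libraries held 10583 to 17103 barcodes, of which 9153 to 13835 were annotated nuclei with a median of 2610 to 3503 UMIs. Between any pair of libraries, 11 to 60 barcodes were shared, at most 0.503% of the smaller library. Over annotated PTB nuclei, Tbx1 was at 38.9 and 39.4 CPM in the WT libraries and at 26.3 and 35.7 CPM in the Tbx1+/- libraries. It had 4 to 13 UMIs per PF/F library, which does not check the genotype there. A lower level in a sum over a whole tissue may come from fewer nuclei of a type or from less RNA in each, and in such sums these cannot be told apart.

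By mean level over 4 libraries, the SoxD genes Sox5 and Sox6 were both highest in matured chondrocytes of the PTB. For each gene the libraries of matured chondrocytes overlapped with those of other types. Counts were not corrected for free RNA, and osteoclasts, taken as background, had Sox5 at 93.6 to 124 CPM and Sox6 at 167 to 206 CPM. Sox5 in matured osteoblasts/osteocytes, at 92.6 to 113 CPM, and Sox6 in CP3 and CT2, with means of 184 and 165 CPM, were not distinguished from it. The study showed its PTB types by genes that include Sox9 and its PF/F types by genes that include Sox6, and the types came from clusters of these same nuclei, so levels by type are a description and were not tested against each other. The 587 matured chondrocyte nuclei carried the defining cartilage markers Col2a1 at 3660 CPM, Acan at 1330 CPM and Matn1 at 383 CPM, means of 4 libraries. In the order WT replicate 1, Tbx1+/- replicate 1, WT replicate 2 and Tbx1+/- replicate 2, which is kept below, these libraries gave 147, 48, 138 and 254 such nuclei. Sox6 in matured chondrocytes was at 2550, 3940, 1750 and 2210 CPM (2620 ± 944, SD, n = 4). Sox5 in matured chondrocytes was at 1150, 1430, 777 and 735 CPM (1020 ± 330, SD, n = 4). For both genes the libraries of replicate 1 were higher than those of replicate 2, and the highest library was the one with 48 nuclei. In 1 WT library the erythroid markers reached 13300 CPM in these nuclei, of which 2 nuclei held at least 1% of their UMIs in those markers. Without such nuclei the means in matured chondrocytes were 2640 CPM for Sox6 and 1040 CPM for Sox5, an alternative chosen after the values were seen.

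**Figure D1:**
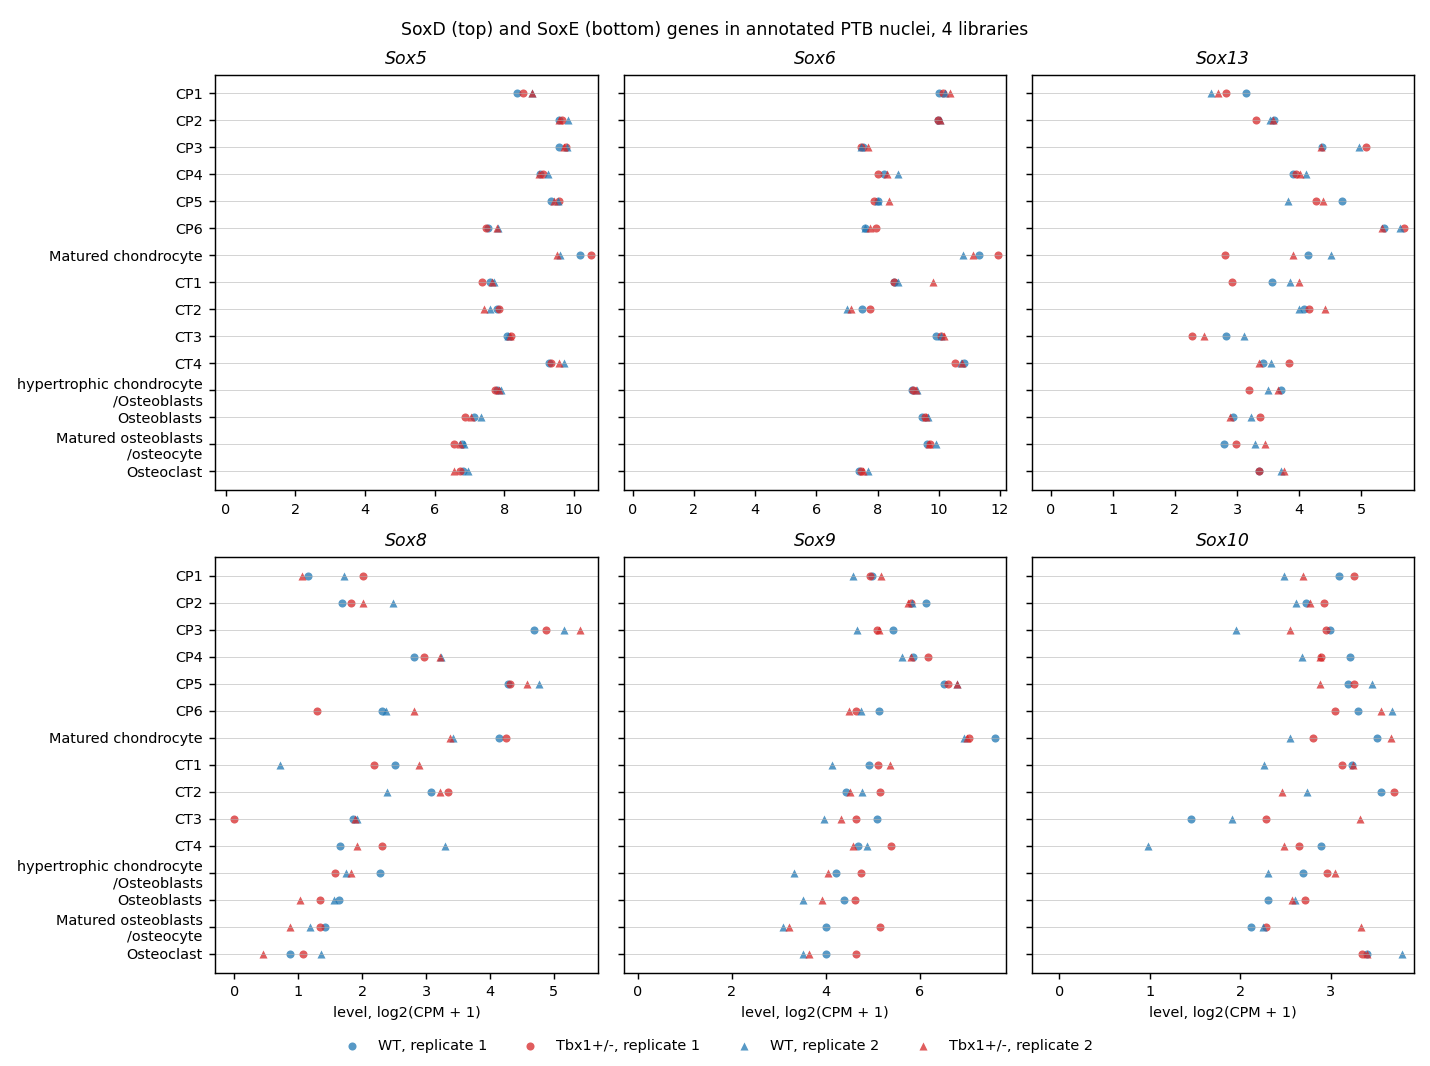
Level of each SoxD gene (top) and SoxE gene (bottom) in the 15 annotated PTB types, as log2(CPM + 1) on the x axis, with 1 point per library (blue WT, red Tbx1+/-, circles replicate 1, triangles replicate 2). By mean level, Sox5, Sox6 and Sox9 were highest in matured chondrocytes, Sox13 in CP6 and Sox8 in CP3. Libraries of matured chondrocytes overlapped with those of CP3, CP2, CT4 and CP5 for Sox5 and of CT4 for Sox6. Those of CP3 overlapped with CP5 for Sox8. Sox10 lay at 0.977 to 12.8 CPM in every library and type.

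Beyond matured chondrocytes, the types high in Sox5 and those high in Sox6 differed in part, and CT4 and CP2 were high in both. CP1 to CP6 are the chondrocyte progenitor subpopulations of the annotation and CT1 to CT4 its connective tissue subpopulations. Sox5 came next in CP3, at 755, 869, 895 and 844 CPM, and in CP2, at 762, 800, 902 and 763 CPM. CT4 had Sox5 at 621 to 840 CPM. The values of these types overlapped with one another and with those of matured chondrocytes, so their order was not resolved. In both libraries of replicate 2, Sox5 was higher in CP3, CP2 and CT4 than in matured chondrocytes. Sox5 was low in the bone-forming types osteoblasts, at 137 CPM, and matured osteoblasts/osteocytes, at 105 CPM, and was at 109 CPM in osteoclasts. The hypertrophic chondrocyte/osteoblast type had Sox5 at 214 to 237 CPM, above every library of those types.

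Sox6 was second highest in CT4, at 1790, 1460, 1680 and 1730 CPM, which overlapped with matured chondrocytes and lay above every library of the next type, CP1. CP2 had Sox6 at 994 to 1040 CPM. Sox6 remained high in the bone-forming types that were low in Sox5. Osteoblasts had Sox6 at 705, 750, 798 and 757 CPM, and matured osteoblasts/osteocytes at 786, 841, 963 and 816 CPM, all above those of osteoclasts. CP3, the type next highest in Sox5, had Sox6 at 175 to 204 CPM, within the 167 to 206 CPM of osteoclasts. Osteoblasts, with 20.6% of all annotated UMIs, held 23.3% of the Sox6 UMIs and 7.82% of the Sox5 UMIs.

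Both genes were set against each other by the ratio of Sox6 to Sox5 UMIs within a library, and compared between types for this same pair of genes. In the PTB the ratio ran from 0.22 in CP3, with libraries between 0.196 and 0.243, to 8.14 in matured osteoblasts/osteocytes, with libraries between 7.2 and 9.08. Sox6 in CP3 and Sox5 in matured osteoblasts/osteocytes were not distinguished from osteoclasts, so how far these end ratios reach was not resolved. Osteoclasts, the background type, had a ratio of 1.69, with libraries between 1.49 and 1.94. Between these ends lay CP5 at 0.381, CP4 at 0.574, CP6 at 1.06, CP2 at 1.27, matured chondrocytes at 2.56, CP1 at 2.95, CT3 at 3.81 and osteoblasts at 5.55. The 4 libraries of CP3, CP5 and CP4 did not reach those of CP2, CP1 or any bone-forming type. In CT1, Tbx1+/- replicate 2 had a ratio of 4.52 against 1.93 to 2.26 in the other libraries.

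**Figure D2:**
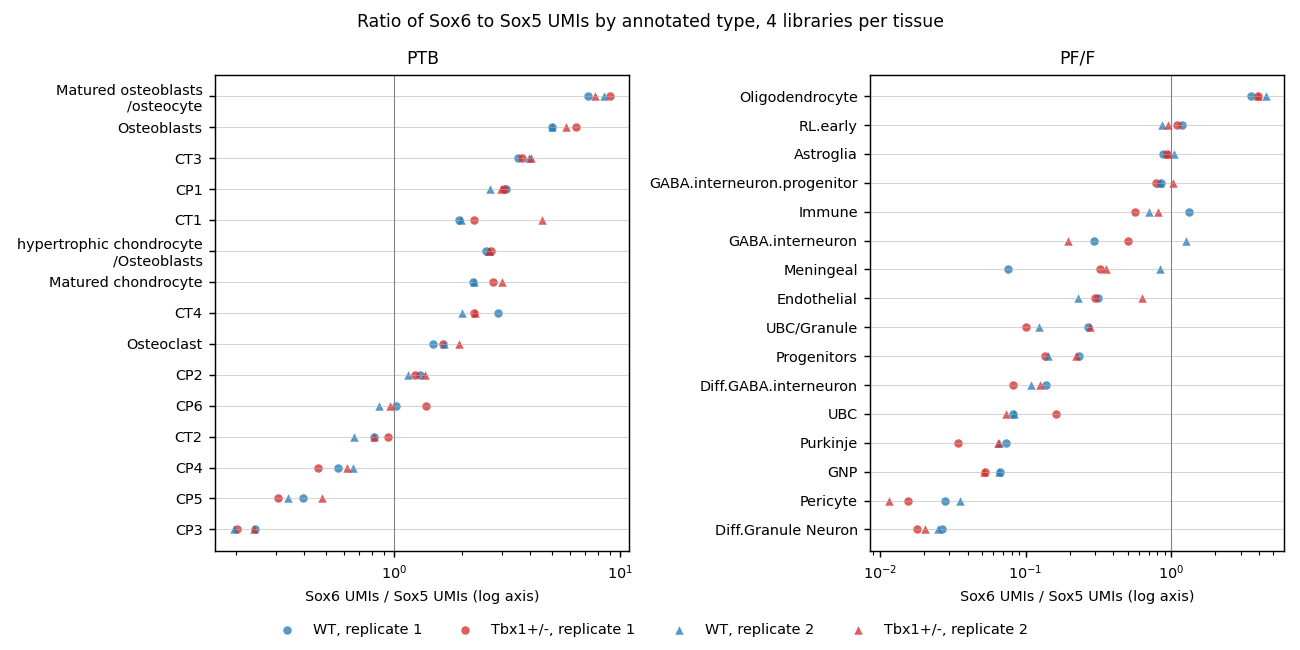
Ratio of Sox6 to Sox5 UMIs on a log axis for each annotated type (y axis) of the PTB (left) and PF/F (right), with 1 point per library and a grey line at equal counts. PTB types ran from 0.22 in CP3 to 8.14 in matured osteoblasts/osteocytes, and PF/F types from 0.0225 in differentiated granule neurons to 3.93 in oligodendrocytes. Sox6 in CP3 and Sox5 in matured osteoblasts/osteocytes did not exceed the highest osteoclast library. Sox6 in differentiated granule neurons did not exceed that of immune nuclei.

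Sox13 was sparse in annotated PTB nuclei, with 1889 UMIs in all, and stood out in CP6. It was at 40.4, 50.4, 48 and 39.4 CPM in CP6, above every library of the next type, CP3, which had 19.4 to 32.8 CPM. CP6 was also the PTB type with the most neuron marker UMIs, at 1670 CPM summed over 4 markers, against 429 CPM in CP3 and 34.4 CPM in CT4. Their part in the Sox13 level was not tested. CT3 had the lowest Sox13, at 3.86 to 7.62 CPM.

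Among the SoxE genes, Sox9 was highest in matured chondrocytes, at 194, 132, 121 and 127 CPM (144 ± 33.9, SD, n = 4). CP5 followed at 90.2, 96.6, 109 and 109 CPM, below every matured chondrocyte library and above every library of CP2, CP4 and the remaining types. CP5 had the highest chondrocyte marker sum of the progenitor types, 3710 CPM over Col2a1, Acan, Matn1 and Col9a1, against 6800 CPM in matured chondrocytes. Osteoclasts, which served as background, had Sox9 at 10.5 to 23.9 CPM, and osteoblasts at 10.4 to 23.5 CPM were not distinguished from them.

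Sox8 was low in the PTB but not evenly so. It was at 24.9, 28.4, 34.6 and 41.6 CPM in CP3 and at 18.4, 18.9, 26.1 and 23 CPM in CP5. Matured chondrocytes had 9.34 to 18 CPM of Sox8, below every CP5 library, and osteoclasts had 0.368 to 1.55 CPM. CP3 and CP5 held 27.4% and 18.6% of the annotated PTB UMIs of Sox8, with 4.46% and 4.55% of all UMIs. Sox8 and Sox9 thus had different orders, since CP3 had Sox9 at 33.2 CPM, with libraries that overlapped those of CT1, CP1, CT4 and CP6.

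Sox10 showed no such type among the annotated PTB nuclei. Its means were 4.32 to 10.3 CPM over the 15 types, and the highest was in osteoclasts, the type taken as background, at 9.61, 9.19, 12.8 and 9.58 CPM. The libraries of each type overlapped with those of the next in this order. Osteoclasts held 10.8% of the annotated Sox10 UMIs with 6.81% of all UMIs, and osteoblasts 15.7% with 20.6%.

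Shares of nuclei with a UMI were compared after every nucleus had been thinned to 2000 UMIs, with shallower nuclei left out. Of 443 matured chondrocyte nuclei, 82.8% had Sox6, 65.6% Sox5 and 21.7% Sox9, means of 4 libraries. For Sox5 and Sox6 other types had higher mean shares, with Sox5 in 73.8% of CP3 nuclei and Sox6 in 88.7% of CT4 nuclei. Of 1522 osteoclast nuclei, whose median depth before thinning was 5788 UMIs against 2572 in matured chondrocytes, 22% had Sox6, 12.5% Sox5 and 3.13% Sox9. Unthinned shares were 83.8%, 69.7% and 29.1% in matured chondrocytes and 41.4%, 26.2% and 8.4% in osteoclasts. Sox10 was found in 1% to 1.74% of thinned CP2, CP3, CP5, CP6 and matured chondrocyte nuclei, no higher than the 1.63% of osteoclasts except in CP5, where the libraries ran from 1.15% to 2.73% against 0.897% to 2.56%. Sox8 was in 5.89% of CP3 nuclei against 0.221% of osteoclasts.

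Co-detection in the same thinned nuclei differed by pair. In matured chondrocytes, Sox5 was found in 72.9% of nuclei with Sox9 and in 63.8% of nuclei without it, higher in 4 of 4 libraries, by 4.56 to 13 percentage points, over 93 nuclei with Sox9, with 9 in 1 library, and 350 without. For Sox6 the shares were 82.5% and 83.3%, higher in 2 of 4 libraries. Nuclei with Sox6 had Sox5 more often in CP2, 70.7% against 68.2%, in 4 of 4 libraries, by 0.586 to 4.26 percentage points. In matured chondrocytes the shares were 69.8% and 50.6%, also higher in 4 of 4 libraries, but only 91 nuclei lacked Sox6, with 3 in 1 library. In CP5, by contrast, nuclei with and without Sox9 had Sox5 at 70% and 70.1%. These are shares in types that were themselves clustered on gene levels, and no test was made.

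In the PF/F, Sox6 and Sox10 were highest in oligodendrocytes, Sox9 in astroglia and early rhombic lip nuclei, and the libraries of these 3 types overlapped in Sox5. Oligodendrocytes carried Mbp at 971 CPM and Pdgfra at 484 CPM, and astroglia had an astroglial marker sum of 2920 CPM. Immune nuclei were taken as the background of the PF/F. The pericytes and endothelial nuclei, with 74 and 183 nuclei in all, had under 20 nuclei in at least 1 library and are given as values only.

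Sox10 was confined to oligodendrocytes more than any other member was to 1 PF/F type, by its share of UMIs. Oligodendrocytes had 488, 494, 543 and 526 CPM (513 ± 26.1, SD, n = 4), and these 1624 nuclei, with 3.76% of all annotated PF/F UMIs, held 90.7% of the Sox10 UMIs. The next type, immune nuclei, had 0 to 31.4 CPM from 21 UMIs. Astroglia had Sox10 at 1.18 to 2.51 CPM. After thinning, 61% of oligodendrocyte nuclei had Sox10 against 1.19% of immune nuclei and 0.34% of astroglia.

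Sox6 in oligodendrocytes was at 2170, 2530, 3280 and 2790 CPM (2690 ± 470, SD, n = 4), above every library of early rhombic lip nuclei at 572 to 664 CPM and of astroglia at 495 to 743 CPM, which overlapped with each other. Sox6 was found in 95.3% of thinned oligodendrocyte nuclei, 66.8% of astroglia, 63.5% of early rhombic lip nuclei and 8.81% of immune nuclei. Oligodendrocytes held 44.5% of the Sox6 UMIs and astroglia, with 15.3% of all UMIs, 41.6%. Granule neuron progenitors (GNPs) and differentiated granule neurons, which held 15.4% and 35.9% of the UMIs, had Sox6 at 16.3 to 21.1 and 7.07 to 10 CPM. The study names Sox6, with Neurod1, as a marker of granule neuron progenitors, but GNPs held 1.26% of the Sox6 UMIs.

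Sox5 was at 621, 648, 744 and 715 CPM in oligodendrocytes, at 566, 592, 714 and 709 CPM in astroglia and at 479, 578, 767 and 668 CPM in early rhombic lip nuclei, and these types were not distinguished. Differentiated granule neurons had Sox5 at 357, 392, 401 and 411 CPM, and this type, with 35.9% of all UMIs, held 37.4% of the Sox5 UMIs. Pericytes had 1030 to 2100 CPM of Sox5, from 74 nuclei. The ratio of Sox6 to Sox5 UMIs was accordingly 3.93 in oligodendrocytes, 0.95 in astroglia, 0.0592 in GNPs and 0.0225 in differentiated granule neurons, with libraries between 0.018 and 0.0266 in the last. Immune nuclei, the background type, had Sox6 at 46.5 to 175 CPM, above every library of GNPs and differentiated granule neurons, so how low these ratios reach was not resolved.

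**Figure D3:**
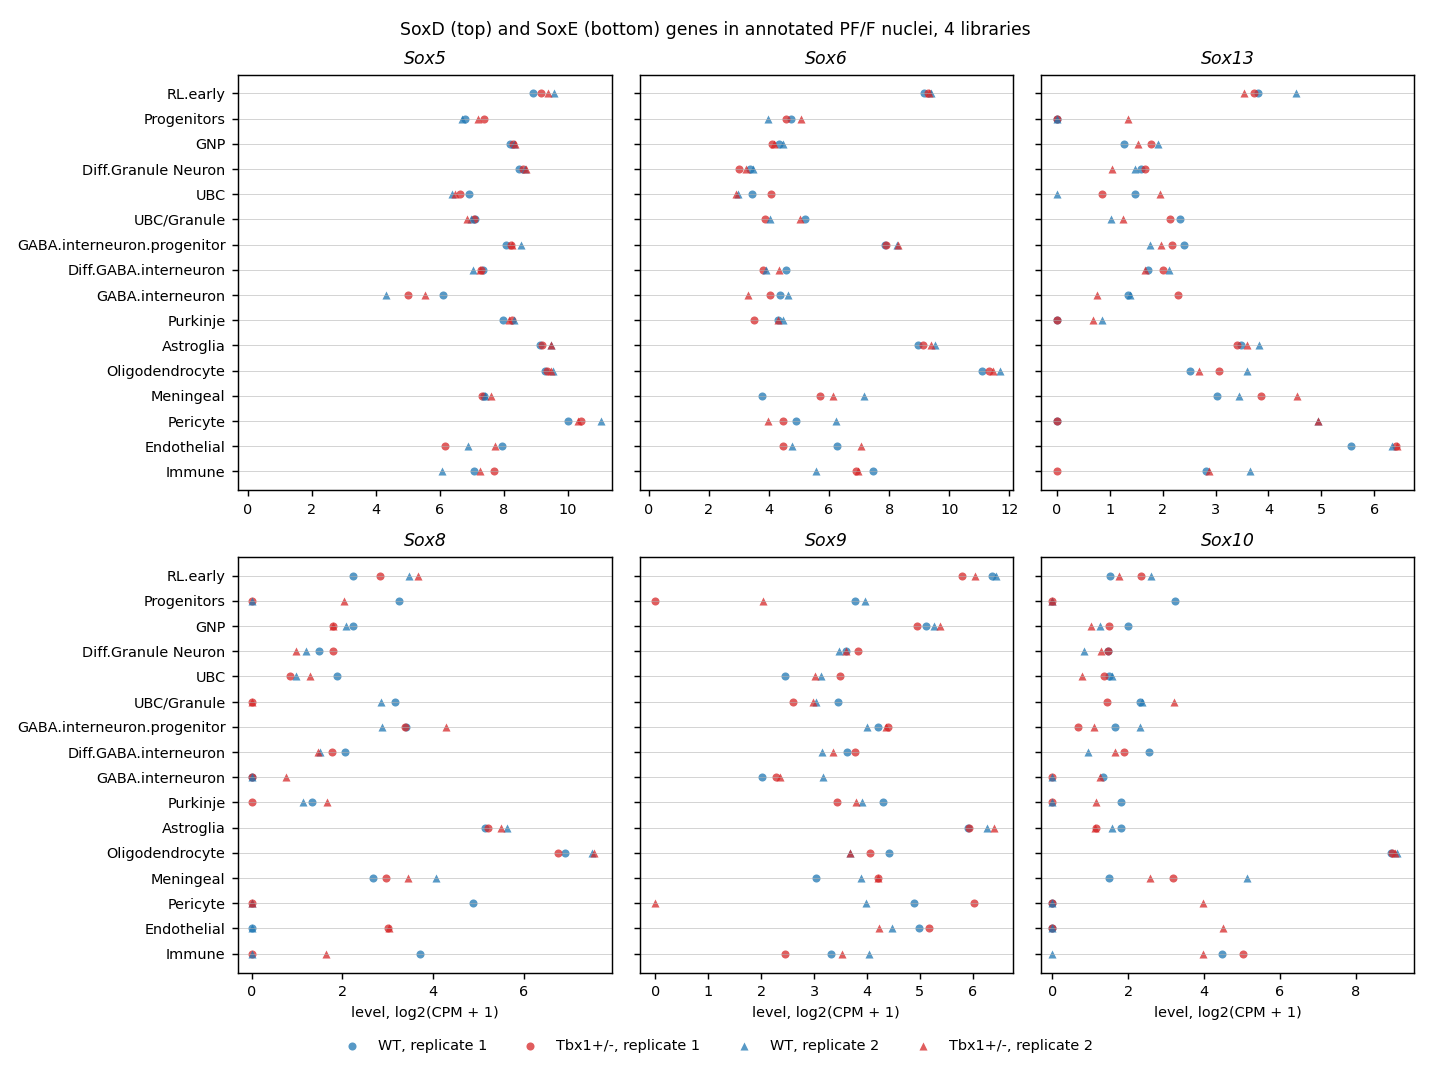
Level of each SoxD gene (top) and SoxE gene (bottom) in the 16 annotated PF/F types, as log2(CPM + 1) on the x axis, with 1 point per library (colours and symbols by genotype and replicate as in the legend). Sox10 reached 488 to 543 CPM in oligodendrocytes and at most 33.7 CPM in any library of another type. Sox5 was at 253 CPM or more in oligodendrocytes, astroglia, early rhombic lip, GNPs, differentiated granule neurons and Purkinje nuclei of every library. GABA interneuron progenitors, at 271 to 372 CPM, and pericytes, at 1030 to 2100 CPM, lay above 253 CPM as well.

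Sox9 was at 81.8, 55, 85.9 and 64.6 CPM in early rhombic lip nuclei and at 59.3, 60.2, 76.4 and 83.9 CPM in astroglia, which overlapped. GNPs followed at 29.7 to 40.5 CPM, below every astroglial library. Oligodendrocytes had Sox9 at 11.8 to 20.3 CPM, near the 4.48 to 15.5 CPM of immune nuclei. Astroglia and GNPs held 42.7% and 21.7% of the Sox9 UMIs, with 15.3% and 15.4% of all UMIs.

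Sox8 was highest in oligodendrocytes at 120, 107, 181 and 188 CPM and next in astroglia at 34.4, 36.2, 48.9 and 44.6 CPM, with no overlap between these or with the type that followed. In oligodendrocytes both libraries of replicate 2 were above both of replicate 1. In early rhombic lip nuclei, whose Sox9 overlapped with that of astroglia, Sox8 was at 3.72 to 11.7 CPM, within the 0 to 12.1 CPM of immune nuclei. After thinning, it was in 23.9% of oligodendrocyte nuclei, 8.29% of astroglia and 0.362% of immune nuclei.

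Sox13 had 721 UMIs over all annotated PF/F nuclei. Endothelial nuclei had 45.9, 83.9, 79.4 and 85.6 CPM and held 7.49% of them, with 0.389% of all UMIs. In astroglia, Sox13 was at 9.56 to 13.1 CPM, and early rhombic lip nuclei at 10.6 to 21.9 CPM were not distinguished from them.

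At least 1 SoxD and 1 SoxE gene were found in the same thinned nucleus in 68.6% of oligodendrocytes, with libraries between 64.2% and 74.4%. The share was 18.3% in astroglia, 13.6% in early rhombic lip nuclei and 2.18% in immune nuclei. In the PTB it was 23.1% in matured chondrocytes, 19% in CP5, 11.6% in CP2 and 2.39% in osteoclasts. Within oligodendrocytes, nuclei with Sox6 had Sox5 in 68.1% against 48% in nuclei without Sox6, higher in 4 of 4 libraries, but only 76 nuclei lacked Sox6, with 5 in 1 library. Nuclei with Sox10 had Sox6 in 95.8% and nuclei without it in 94.4%, higher in 3 of 4 libraries. For Sox5 the shares were 64.4% with Sox10 and 71.2% without it, higher in 1 of 4 libraries.

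Sox10 in the PTB lay mostly in barcodes that the annotation did not hold. The PTB annotation used here covers the connective tissue, cartilage and bone types and osteoclasts, a subset of the bone nuclei that the study kept. The study's full bone annotation, which also held immune cells and neurons, was not used here. Many of the barcodes called outside may therefore have been typed by the study, but by its stated number of bone nuclei not all were. Of the PTB barcodes outside the annotation, 21378 were within the limits stated in the study's methods, at least 1000 genes and 3 median absolute deviations for UMIs, genes and mitochondrial share, and they had 41% of the UMIs of the annotated and these barcodes together. They held 10766 of the Sox10 UMIs and the annotated nuclei 994, so that 91.5% of Sox10 was outside. Sox10 was at 80, 91.2, 117 and 126 CPM there, 12 to 20.9 times the level in annotated nuclei of the same library. Sox13 had 72% of its UMIs outside, at 41.5 to 52.4 CPM against a mean of 12.4 CPM in annotated nuclei. For Sox5, Sox6 and Sox9 the shares outside were 44.8%, 37.4% and 42.9%, near the share of all UMIs, and for Sox8 52.6%.

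These barcodes were grouped by the marker list with the most UMIs, at least 3. None of the 6 members was in a list. Such a group holds barcodes, which may be mixtures, and its name is that of its markers. Sox10 was high in the group led by melanocyte markers (295 barcodes), at 378, 247, 441 and 414 CPM. Of the pigment genes that formed this group, Dct was at 9300 CPM and Tyr at 4040 CPM. Pmel, Mlana and Tyrp1 were lower, at 506, 97.9 and 42.4 CPM. The group led by Schwann cell markers (1231 barcodes) had Sox10 at 234, 269, 341 and 301 CPM. The group led by oligodendrocyte markers (240 barcodes) had 235 to 400 CPM, and its Mbp at 3520 CPM stood beside Olig1 at 23.5 CPM and Olig2 at 26.4 CPM. Mbp serves Schwann cells as well. The libraries of these 3 groups overlapped, so their order was not resolved.

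The group led by markers of otic and other epithelium (1611 barcodes) held 2298 Sox10 UMIs, or 21.3% of those outside. Its Otog at 1040 CPM, Otogl at 1200 CPM and Oc90 at 773 CPM encode proteins of the acellular membranes of the inner ear. The other genes of this list, Epcam, Cdh1 and Krt8, were at 294, 242 and 18.3 CPM in the group. Sox10 was at 188, 186, 238 and 267 CPM there, against 11.8 to 17.4 CPM in the group led by endothelial markers and 6.66 to 13.1 CPM in that led by immune markers. Melanocyte-, Schwann-, oligodendrocyte- and epithelium-led groups did not overlap with the endothelial or immune ones in any library. The group led by osteoblast markers, 6872 barcodes, had Ibsp at 5100 CPM but Bglap, Alpl and Sp7 at 614, 283 and 126 CPM. It held 2378 Sox10 UMIs, or 22.1%, with Sox10 at 49.2 to 117 CPM, while the annotated osteoblasts had 3.94 to 5.59 CPM. Chondrocyte-led barcodes at 73.6 to 128 CPM, osteoclast-led ones at 53.1 to 71.4 CPM and barcodes with no leading list at 80.2 to 135 CPM were likewise above every annotated type. Free RNA and barcodes with more than 1 nucleus were not separated, and their part in these levels was not tested.

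**Figure D4:**
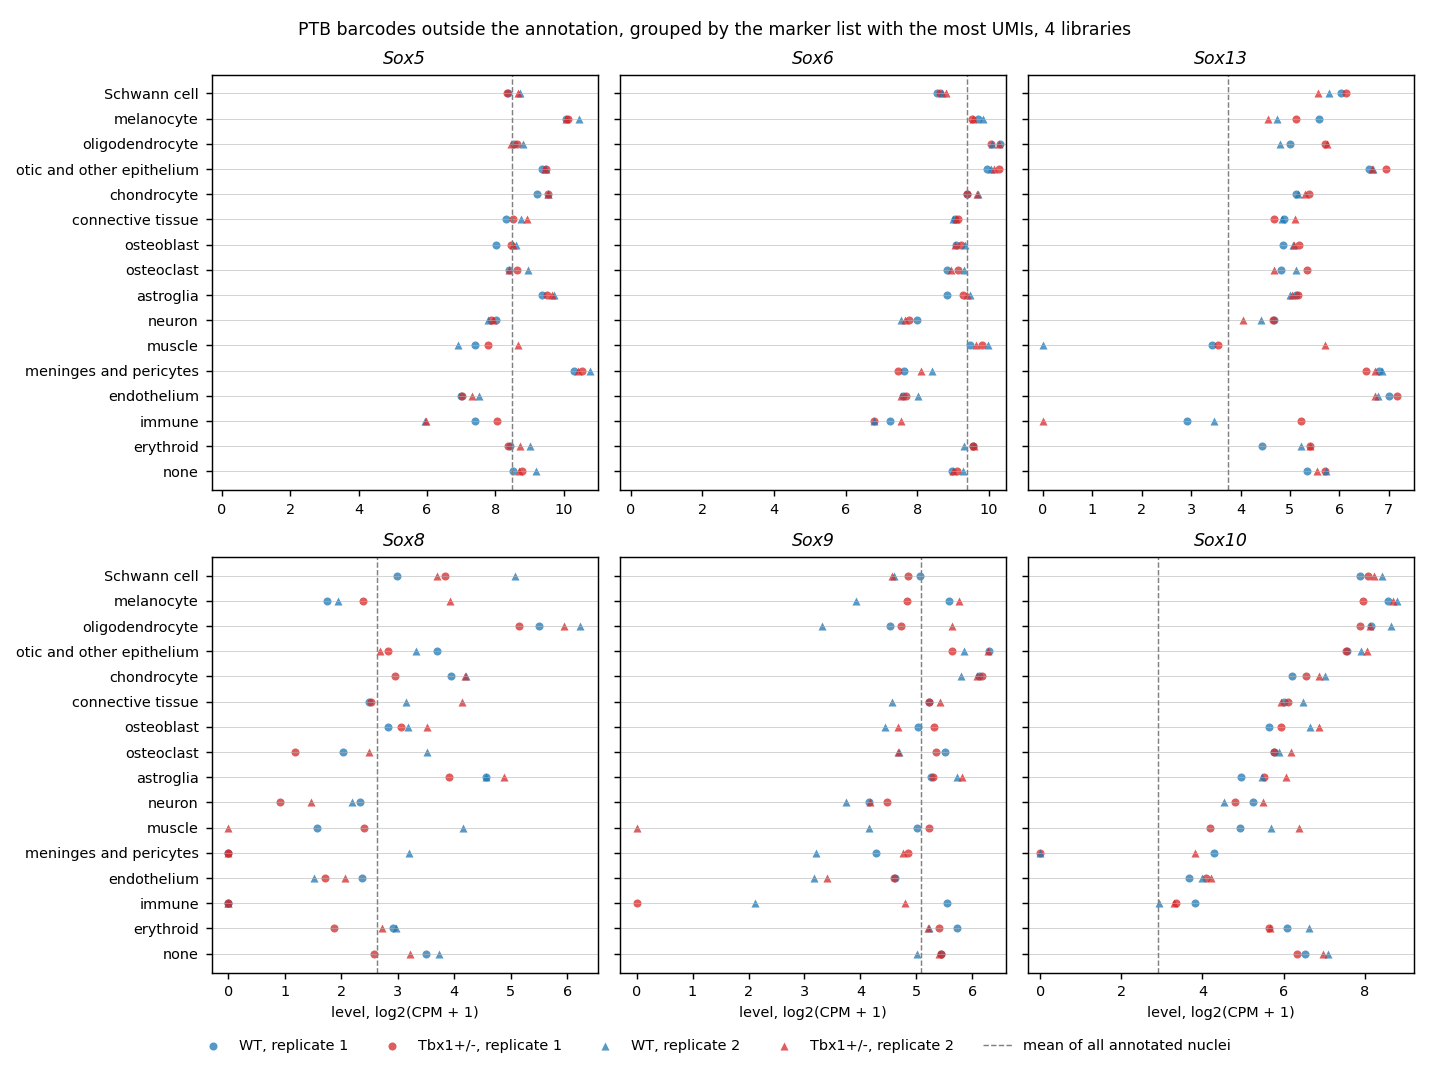
Level of each member, as log2(CPM + 1) on the x axis, in PTB barcodes outside the annotation, grouped by leading marker list (y axis), with 1 point per library and a dashed line at the mean of all annotated PTB nuclei. For Sox10 the melanocyte, Schwann cell, oligodendrocyte and epithelium groups lay at 186 to 441 CPM, against 6.47 CPM in annotated nuclei.

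The other members had their own leading groups outside the annotation. Sox13 was at 128, 142, 109 and 104 CPM in the endothelium-led group, at 95.8, 122, 101 and 100 CPM in the epithelium-led group and at 92.5 to 115 CPM in the group led by meningeal and pericyte markers, each above the 39.4 to 50.4 CPM of CP6. Sox5 reached 1260, 1470, 1730 and 1370 CPM in the meningeal and pericyte group of 101 barcodes and 1070 to 1390 CPM in the melanocyte-led group. Sox6 was at 1070 to 1260 CPM in the oligodendrocyte-led group and at 990 to 1240 CPM in the epithelium-led group, which overlapped. In the epithelium-led group Sox9 was at 48.6 to 77.2 CPM. The chondrocyte-led group (1768 barcodes) had Sox9 at 68.2, 71.3, 54.6 and 66.7 CPM, below the libraries of annotated matured chondrocytes and CP5. Sox8 was highest in the oligodendrocyte-led group at 34.2 to 74.1 CPM. In the PF/F, 2209 barcodes outside the annotation were within the same limits. They had 1.81% to 4.25% of each member's UMIs in the annotated and these barcodes together, against 4.9% of the UMIs of all genes.

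Over the 31 types of both tissues, the genes most like each member were found by Pearson's r of log2(mean CPM + 1) among 9464 genes with at least 50 CPM in a type. Types share libraries and depth, and r is given as a description. Among the genes most like Sox10 were 1700047M11Rik (r = 0.853) and the myelin gene Mag (r = 0.847). Sox6 was most like Gm45025 (r = 0.922), which overlaps it on the opposite strand, then the growth factor receptor Fgfr3 (r = 0.857) and the cGMP-dependent kinase Prkg2 (r = 0.847), both highest in matured chondrocytes. Sox9 was most like BC006965 (r = 0.845), the actin-binding calponin Cnn3 (r = 0.834) and Mindy4 (r = 0.794). Sox13 was most like Marc2 (r = 0.881), Nmi (r = 0.86) and the Hippo pathway coactivator Wwtr1 (r = 0.858), Sox8 like Traf4 (r = 0.815), Inava (r = 0.746) and Cdc37l1 (r = 0.725), and Sox5 like the Notch coactivator Maml2 (r = 0.742), Pde3a (r = 0.718) and Ttll4 (r = 0.658). Between members, r was highest for Sox5 and Sox9 at 0.754 and lowest for Sox9 and Sox10 at 0.096.

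Whether Tbx1 heterozygosity was accompanied by a change in these genes was tested with edgeR's quasi-likelihood test on sums per library, called at an adjusted p under 0.05 and above 1.5-fold. No member was called in any annotated type. In the PTB, 0 of 77 member-by-type tests were called, where 0% of all 187198 gene-by-type tests were called. In the PF/F it was 0 of 50, where 0.000619% of 161523 gene-by-type tests, 1 test, were called. At an unadjusted p under 0.05, edgeR gave 0 of 77 member tests in bone, where 1.81% of all tests passed, and 1 of 50 in the PF/F, where 1.32% did. DESeq2 gave 0 in each, where 0.284% and 0.11% of all tests passed, and called 0. With 2 against 2 libraries, a two-sided exact permutation test of a single gene cannot give a p below 0.33. With the replicate block, 71 PTB and 60 PF/F gene-by-type tests were called, and none was a member. At an unadjusted p under 0.05 the block gave 4 of 77 PTB and 3 of 50 PF/F member tests, near the 3.93% and 4.37% of all tests.

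Over all annotated nuclei, the members' levels were close between genotypes. In the PTB, Sox9 was at 37.4 and 26.8 CPM in WT and at 36.4 and 31.6 CPM in Tbx1+/- libraries, a log2 change of 0.08 with a 95% interval of -0.41 to 0.57. Sox5 was at 356 and 397 against 329 and 360 CPM, a log2 change of -0.13 (-0.39 to 0.13). Sox6 was at 616 and 694 against 639 and 732 CPM, a log2 change of 0.065 (-0.23 to 0.36). The adjusted p from edgeR was 1 for each of the 12 tests over a whole tissue. These intervals leave room for changes of either sign and do not show that the levels were the same. In the same fits 0 of 20250 PTB genes and 0 of 20756 PF/F genes were called, so Tbx1 itself was not called in the PTB.

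In the PF/F the log2 changes over all annotated nuclei ran from -0.15 for Sox10 (-0.59 to 0.29) to 0.052 for Sox5 (-0.31 to 0.42). The difference of the genotype effects of the tissues was tested as an interaction over all 8 libraries. It was -0.3 for Sox10, with a 95% interval of -0.87 to 0.27 and values of -0.49 to -0.14 when each library was left out in turn. The adjusted p from edgeR was 1 for all 6 members, and 0 of all 22148 genes were called.

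In the types where each member was highest, the change was no better resolved. Sox6 in matured chondrocytes had a log2 change of 0.52 (-0.4 to 1.44), with Tbx1+/- above WT in both batches but 1 WT library above 1 Tbx1+/- library. It was 0.06 without Tbx1+/- replicate 1, the library with 48 nuclei, 0.26 without WT replicate 2, and 0.83 and 0.88 without WT replicate 1 and Tbx1+/- replicate 2. Sox9 in matured chondrocytes had a log2 change of -0.28 (-0.95 to 0.38), with opposite signs in the 2 batches. In PF/F oligodendrocytes, Sox10 was at 488 and 543 CPM in WT and 494 and 526 CPM in Tbx1+/- libraries, a log2 change of 0.0046 (-0.54 to 0.54). Sox9 in early rhombic lip nuclei was at 81.8 and 85.9 CPM in WT and 55 and 64.6 CPM in Tbx1+/- libraries, which did not overlap, with a log2 change of -0.46 (-1.07 to 0.14) and an adjusted p of 1 from edgeR.

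In PF/F immune nuclei, the background type there, Sox5 had 44 and 17 UMIs in WT and 46 and 72 UMIs in Tbx1+/- libraries. It had the smallest unadjusted p of a member, at 133 and 65.8 CPM in WT and 206 and 153 CPM in Tbx1+/- libraries. Its log2 change was 0.78 (SE 0.35), with a 95% interval of 0.019 to 1.54 and an adjusted p of 1 from edgeR. Leaving out WT replicate 2 gave 0.37 and leaving out WT replicate 1 gave 1.46, and neither was called. In CT1, Sox6 in Tbx1+/- replicate 2 at 892 CPM stood above the 369 to 408 CPM of the other libraries. The log2 change of Sox6 in CT1 was 0.67 (-0.075 to 1.41) with all libraries and -0.086 without that one. Sox5 in osteoblasts was at 140 and 159 CPM in WT and 117 and 132 CPM in Tbx1+/- libraries, a log2 change of -0.28 with an adjusted p of 1 from edgeR. Osteoclasts, the background type, overlapped with this level and had Sox5 at 112 and 124 CPM in WT and 105 and 93.6 CPM in Tbx1+/- libraries, a log2 change of -0.25. Sox6 in PF/F meningeal nuclei was at 12.6 and 143 CPM in WT and 51.4 and 69.4 CPM in Tbx1+/- libraries, a log2 change of -0.32 (-1.61 to 0.97). These levels overlapped with the 46.5 to 175 CPM of immune nuclei, the background type. Without WT replicate 2 the log2 change of Sox6 in meningeal nuclei was 2.24, the only call of a member under any alternative run. That fit left 1 WT library, which had 7 Sox6 UMIs in these nuclei. The genotypes did not overlap in 14 of the 77 PTB tests, where 26.7% of all gene-by-type tests did not, and in 11 of the 50 PF/F tests, where 24.3% did not.

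**Figure D5:**
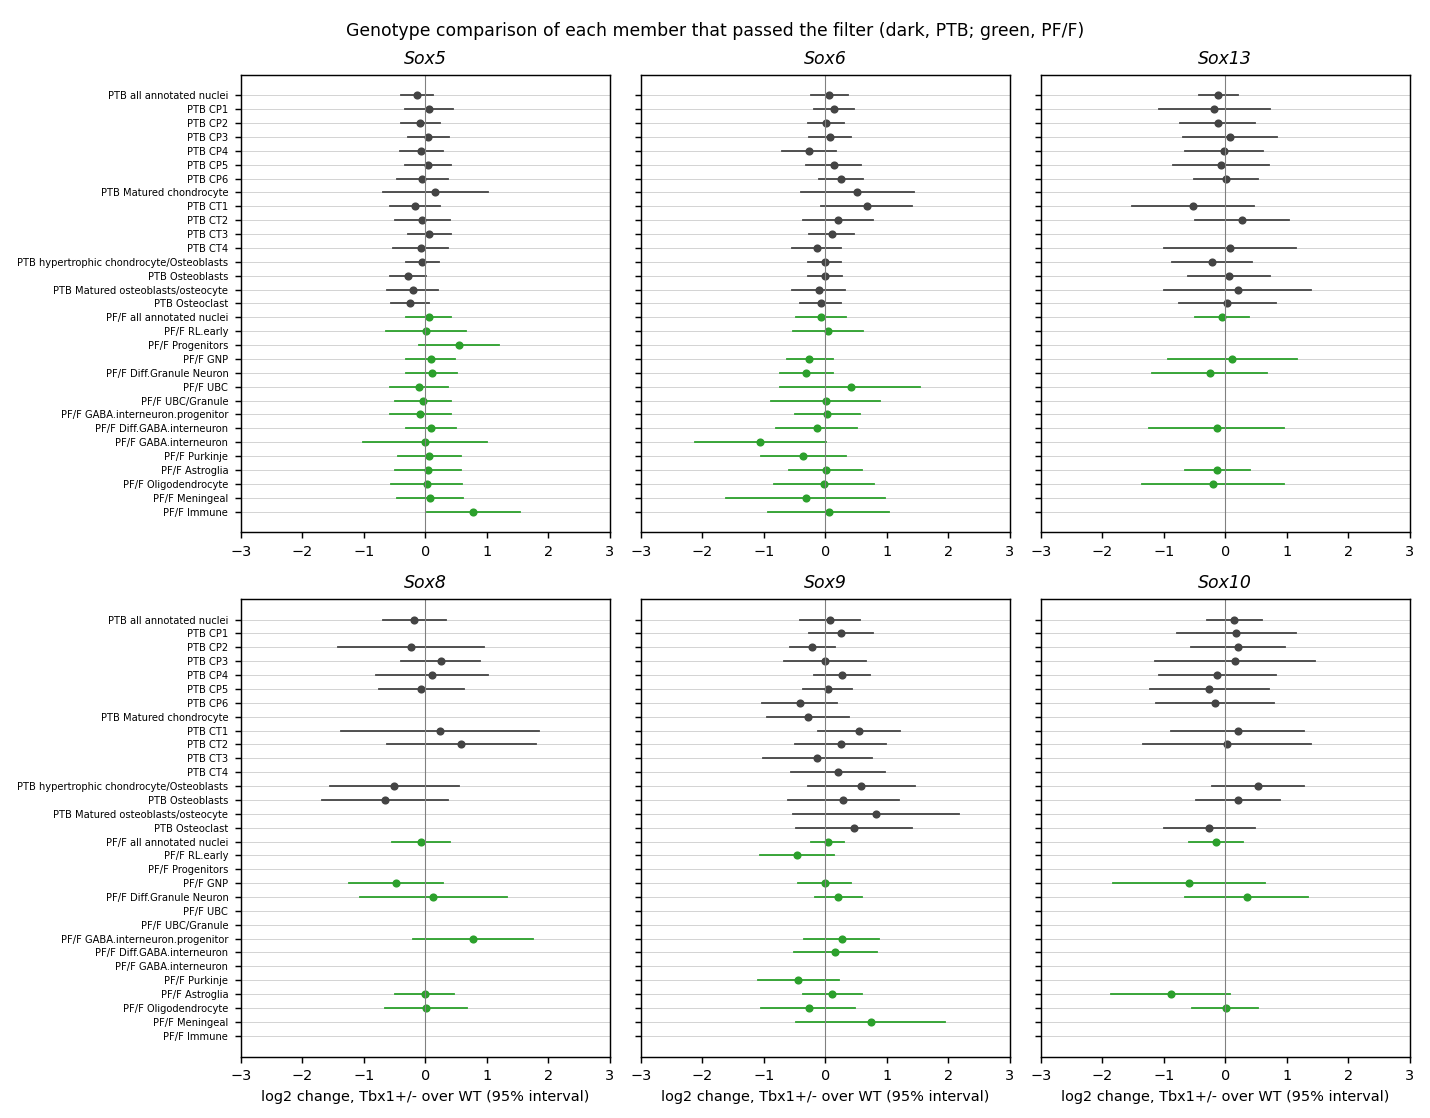
Log2 change of each member in Tbx1+/- over WT libraries (x axis) with its 95% interval from edgeR, over all annotated nuclei and in each annotated type in which the gene passed the filter on low counts (dark, PTB; green, PF/F). The interval included 0 in every type test shown except that of Sox5 in PF/F immune nuclei.

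Genes that act with the members were examined in the same fits. Of 14 genes known as cartilage targets of Sox9, Sox5 and Sox6, all 14 were tested over the annotated PTB nuclei, 0 were called, and 4 had a positive estimate, with a median log2 change of -0.056 against -0.003 over all 20250 genes. Col2a1, the main cartilage collagen, was at 1090 and 691 CPM in WT and 874 and 821 CPM in Tbx1+/- libraries, and Acan, the core protein of aggrecan, at 116 and 96.7 against 85.8 and 124 CPM. For both, the spread between batches in WT was larger than the difference of the genotypes. In matured chondrocytes, 0 of the 14 were called, with a median of 0.037 against 0.0017 over all 7719 genes, of which 0 were called. With the replicate block the median of the list was 0.19, with 9 positive estimates, in matured chondrocytes and -0.0083, with 7 positive estimates, over the whole PTB.

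Of 13 oligodendrocyte genes, 11 were tested in PF/F oligodendrocytes, 0 were called, and 8 had a positive estimate, with a median of 0.18 against 0.0018 over all 12354 genes, of which 0 were called. Of 12 astroglial genes, 12 were tested in astroglia and 0 were called, with 6 positive estimates and a median of 0.022 against -0.0012 over all 16138 genes, of which 0 were called. At an unadjusted p under 0.05, edgeR and DESeq2 gave 0 genes of any of these lists, where 0.83% to 2.54% of all genes passed with edgeR and 0.0486% to 0.568% with DESeq2. The cartilage list also gave 0 over the whole PTB with the replicate block, where 5.15% of all genes passed. With that block, 2 of 14 cartilage genes passed in matured chondrocytes, where 5.78% of all genes did, 3 of 11 oligodendrocyte genes, where 4.37% did, and 3 of 12 astroglial genes, where 3.36% did, and 0 of these were called.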

How the data were processed

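Each of the 8 libraries, pooled from 5 mice, was a set of nuclei read with a 3′ droplet kit. Per the labels and methods, the authors mapped reads to mm10 with Cell Ranger 7.0.0 (submitters' processing notes), introns included, and deposited raw UMI counts. Their SoupX correction for free RNA is not in these counts, and their cell types came from label transfer and curation. No doublet removal is stated, so the 8% of nuclei with the most UMIs were left out as an alternative.

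Counts were summed per library and annotated type, with at least 20 nuclei per library (14 of 16 PF/F types and all 15 PTB types), and tested with edgeR 4.0.16 (limma 3.58.1, R 4.3.3) by the quasi-likelihood test after filterByExpr and TMM scaling, adjusted by Benjamini-Hochberg over all genes of a fit. Intervals are 95%. Libraries of a tissue share replicate numbers, and the study names 2 batches. Deviations from the genotype means correlated between same-numbered libraries (r = 0.478 over 20250 PTB genes and 0.55 over 20756 PF/F genes). Alternatives were DESeq2 1.42.0, RLE scaling, no filter, the replicate block, nuclei with 2000 genes or more, and leaving out each library. Genes named beside the members were the 3 with the highest r and examples from the lists. Some genes that this rule names are not reported here. The test scripts were tested on simulated data. Levels and shares were computed in Python 3.11.15 with pandas 2.3.3, scipy 1.17.1 and numpy 2.4.6. Each p measures the spread between pooled libraries only. The members, lists and tests were chosen with earlier results of these data known.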

Additional observations from a re-analysis of the deposited data

Results flagged for a closer look

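The genotype change of Sox6 over all annotated nuclei was positive in both batches of the PTB and negative in both of the PF/F. The interaction was -0.15 on the log2 scale (SE 0.24, 95% interval -0.7 to 0.41), with an adjusted p of 1 from edgeR, so the difference between the tissues did not pass the test.

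Barcodes outside the annotation but within the study's limits, which no comparison of genotypes used, held UMIs of every member. In the PTB the mean levels there were 423 CPM for Sox5, 574 CPM for Sox6, 46.0 CPM for Sox13, 8.33 CPM for Sox8, 35.7 CPM for Sox9 and 104 CPM for Sox10. The annotated means were 360, 670, 12.4, 5.17, 33.0 and 6.47 CPM in the same order of genes. In the PF/F the means outside were 304 CPM for Sox5, 90.7 CPM for Sox6, 3.79 CPM for Sox13, 4.63 CPM for Sox8, 18.5 CPM for Sox9 and 8.63 CPM for Sox10, against 375, 223, 4.16, 13.9, 25.0 and 21.1 CPM in annotated nuclei. These were noted for lying above the limit that a count of 0 allows, with no control sample to set against them.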

How the results depend on the processing

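Each estimate below that changed sign had an interval that included 0 before any setting was changed. The cause was not tested. Over whole tissues 71 of 72 alternatives other than leaving out a library kept the direction, and Sox13 in the PF/F was at 0.00061 without the 8% of nuclei with the most UMIs. In the highest types 53 of 66 did. The exceptions for Sox13 in CP6 (0.013) were -0.0008 with RLE factors, -0.0017 with no filter, -0.0016 with DESeq2 and -0.022 in nuclei with 2000 genes or more. Sox10 in osteoclasts (-0.26), the background type, was 0.31 without the 8% of nuclei. In oligodendrocytes, nuclei with 2000 genes or more gave -0.15 for Sox5 (0.018) and -0.076 for Sox10 (0.0046), and leaving out the 8% gave 0.0023 for Sox6 (-0.019), -0.095 for Sox8 (0.0081) and -0.061 for Sox10. DESeq2 gave -0.0039 for Sox8. The fit with the replicate block, paired by batch, gave 0.014 for Sox6 and -0.027 for Sox8 there and changed no call of a member. The interaction kept its direction in 35 of 36, and that of Sox9 was 0.0016 without the 8%.

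Leaving out each library gave -0.031 to 0.16 for Sox6 and -0.14 to 0.36 for Sox9 over the PTB. Over the PF/F it gave -0.31 to 0.018 for Sox10, -0.19 to 0.089 for Sox13, -0.017 to 0.12 for Sox5, -0.23 to 0.049 for Sox6, -0.33 to 0.13 for Sox8 and -0.026 to 0.08 for Sox9. In matured chondrocytes it gave 0.06 to 0.88 for Sox6, -0.36 to 0.59 for Sox5 and -0.59 to 0.12 for Sox9, with -0.16 to 0.18 for Sox13 in CP6 and -0.06 to 0.51 for Sox8 in CP3. In oligodendrocytes it gave -0.14 to 0.18 for Sox5, -0.32 to 0.35 for Sox6, -0.5 to 0.36 for Sox8 and -0.1 to 0.11 for Sox10. The interaction ran from -0.49 to -0.14 for Sox10, -0.33 to 0.012 for Sox6, -0.13 to 0.22 for Sox13, -0.19 to 0.34 for Sox8 and -0.33 to 0.18 for Sox9. Members called ran from 0 to 1 in the PF/F, the 1 being Sox6 in meningeal nuclei without WT replicate 2. A group left with 1 library was assumed to vary like the other.

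Of the levels, 32 of 36 moved by less than 1 SD. The others were Sox6 in matured chondrocytes at 3620 CPM and Sox10 in oligodendrocytes at 457 CPM in nuclei with 2000 genes or more, and Sox10 at 560 CPM in oligodendrocytes and 7.42 CPM in osteoclasts without the 8%. Unthinned shares were 97.6% for Sox6, 39.0% for Sox8 and 78.4% for Sox10 in oligodendrocytes, 17.0% for Sox13 in CP6 and 29.1% for Sox9 in matured chondrocytes. Over all genes and types, tests called were 0 in the PTB and 1 in the PF/F, 0 and 2 by DESeq2, and 71 and 60 with the replicate block. Sparse counts limit Sox8, Sox10, Sox13 and, in the PF/F, Sox9, which passed the filter in only some types.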
